A study of Aedes albopictus with 6 samples.

Results

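The Sex-lethal-like gene pair consists of LOC109404970 and LOC115261543, the host genes of circular RNAs whose product name in the deposited table is protein sex-lethal-like. They were taken by gene identifier from the table of circular RNA junction reads. Each gene listed 1 circular RNA, so the pair gave 2 of 8690 circular RNAs and 2 of 4166 host genes, and no other host gene carried this product name. The libraries came from whole bodies of the Asian tiger mosquito, Aedes albopictus, of the Foshan strain. Females and males, all virgin and 2 days old, were compared in 3 libraries per sex, each from a pool of 30 mosquitoes. Ribosomal RNA had been removed and linear RNA digested with RNase R, so that the reads counted cross back-splice junctions. Female libraries held 13322 to 17197 junction reads and male libraries 21624 to 27257. Whole-body pools mix every tissue, so fewer cells of a type and less RNA per cell cannot be told apart in any value given here.

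Circular RNAs arise by back-splicing, in which the end of an exon is joined to the start of the same or an earlier exon, and the closed product resists RNase R. Sex-lethal encodes an RNA-binding protein with a pair of RNA recognition motifs. In Drosophila melanogaster it is the female switch of sex determination: it directs the splicing of its own transcript and of transformer, and blocks male dosage compensation by repressing translation of msl-2. In mosquitoes it is not known to hold that switch, and in Aedes aegypti the male-determining gene Nix acts above the sex-specific splicing of doublesex and fruitless. The questions here are whether both loci look like copies of each other in their circular RNAs and whether either differs by sex.

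The circular RNAs of the pair were nearly identical in shape and in place. In LOC109404970 the back-splice joined positions 52106686 and 52107209 of contig NW_021837267.1 on the minus strand, in a gene annotated at 52105882 to 52137412. In LOC115261543 it joined positions 54948011 and 54948531 of the same contig on the plus strand, in a gene annotated at 54915346 to 54949335. The circular RNAs thus lay 2840802 bases apart in opposite orientation. Both were exon-exon junctions over annotated coding sequence. Positions are those of the deposited table, whose genome build is not given in the sources used here.

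The span from start to end was 523 bases in LOC109404970 and 520 bases in LOC115261543. The deposited spliced length was 453 and 452 bases, so 70 and 68 bases of the span were not part of the spliced product. A difference of 1 base in spliced length cannot be told apart from the table's own convention, since spliced length equalled the span for 604 circular RNAs and was 1 base shorter for 836. No circular RNA of either gene had a counterpart of exactly the same span and spliced length at the other, and with a tolerance of 10 bases the only circular RNA of each gene matched the only one of the other. Lengths alone are not specific: 26 circular RNAs of all 8690 lay within that tolerance of the one of LOC109404970, itself included. Only 2 of the 26, those of the pair, carried the sex-lethal name.

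The distance from the junction to the 3′ end of the gene was 804 bases at both loci. The genes themselves differed in annotated length by 2459 bases, at 31530 bases for LOC109404970 and 33989 for LOC115261543, and that difference lay on the 5′ side of the circular RNAs. Most circular RNAs sat farther from the end of their gene: over 7116 exon-exon circular RNAs inside a host gene on the same strand, the median distance was 17532 bases, and 10.9% lay within 804 bases. Both were also shorter than most, since 18.9% and 18.6% of 7635 circular RNAs with a spliced length had a smaller span, and the medians of that set were 1310 bases of span and 648 bases of spliced length.

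**Figure D1:**
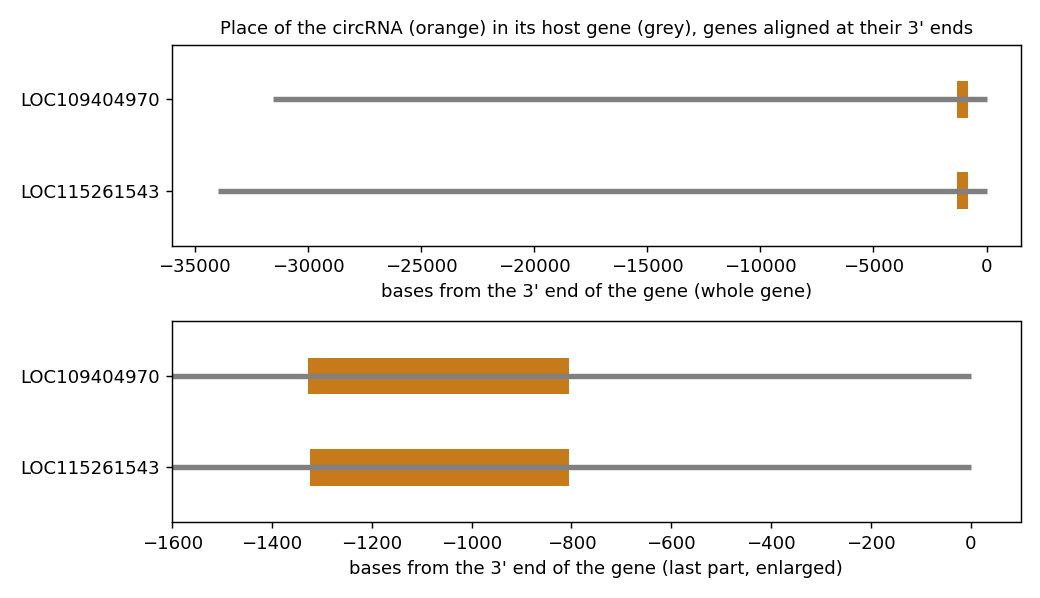
Place of the circular RNA (orange) in LOC109404970 and LOC115261543 (grey), drawn to scale along the horizontal axis in bases from the 3′ end of the gene, for the whole gene above and for the last part enlarged below. Both junctions end 804 bases before the 3′ end, and the genes differ on the 5′ side.

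The loci sat in a stretch of the contig whose other host genes were also listed in mirrored order. Between 1000000 bases before LOC109404970 and 1000000 bases after LOC115261543, 17 genes hosted circular RNAs. Among them 4 product names appeared once on the minus strand on the left and once on the plus strand on the right, which makes 8 genes. From left to right the minus-strand copies were an alpha-tocopherol transfer protein gene (LOC109416172; such proteins carry vitamin E), LOC109404970, a GAS2-like protein pickled eggs gene (LOC109404964; a cytoskeletal linker) and a neurogenic locus notch homolog protein 3-like gene (LOC109416146). On the plus strand they ran in the reverse order, with LOC109416208 for notch homolog protein 3, LOC109416164 for pickled eggs, LOC115261543, and LOC109404973 for the alpha-tocopherol transfer protein. The other 9 host genes in the window had no such partner there. This layout was looked for after the positions of the pair had been seen.

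**Figure D2:**
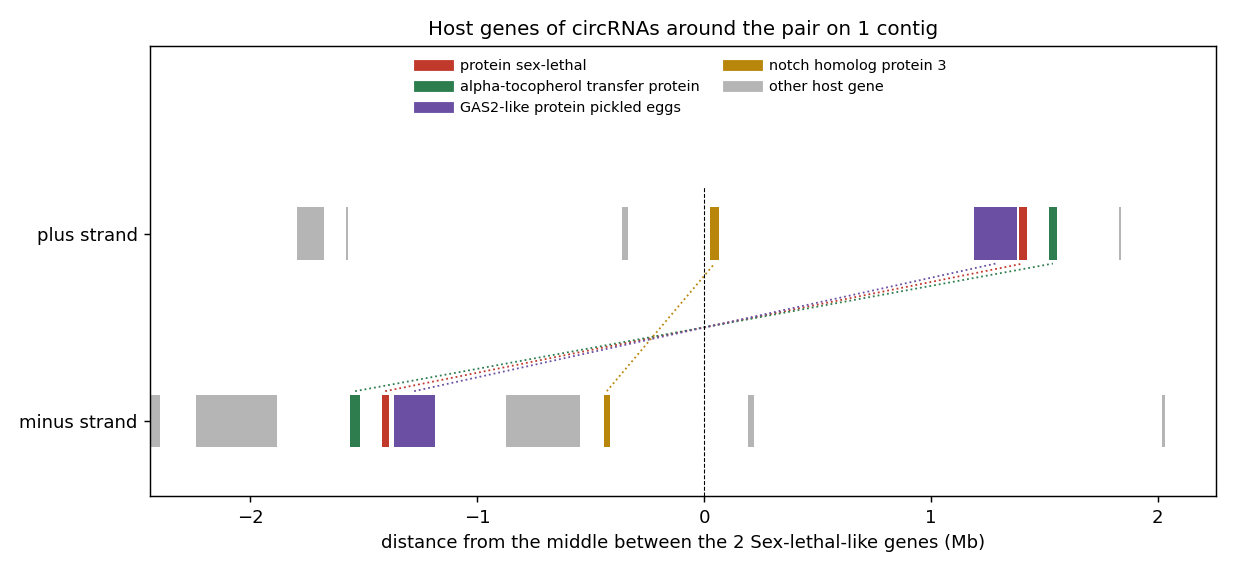
Host genes of circular RNAs around the pair on contig NW_021837267.1, with the horizontal axis in megabases from the middle between the Sex-lethal-like genes and the strand on the vertical axis. Coloured boxes are the 4 product names found on both strands, joined by dotted lines, and grey boxes are the other 9 host genes.

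In the RefSeq gene table of an assembly of the Foshan strain, AalbF5, 2453 of the 4166 host genes (58.9%) were matched by symbol. LOC109404970 was matched, on chromosome 3, and LOC115261543 was not matched. A symbol without a match says only that the table used here gave no row for it, not that the assembly lacks the gene. Of the 8 mirrored genes 4 were matched, exactly 1 for each of the 4 product names and all on chromosome 3: LOC109404973, LOC109404970, LOC109404964 and LOC109416146. Along that chromosome they stood in the order of the minus-strand copies on the contig, with LOC109416152 and LOC109404988 between LOC109404964 and LOC109416146. All but LOC109404973 are minus-strand copies themselves. LOC109404973, a plus-strand copy, stood in the place that LOC109416172 holds among the minus-strand copies.

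Both circular RNAs were abundant, and junction reads were split almost evenly between the loci. A junction read is counted at 1 junction per circular RNA, so these levels need no scaling by length. LOC109404970 had 181 reads over the 6 libraries and LOC115261543 had 173, against a median of 4 reads per circular RNA, and they ranked 88 and 97 among the 8690. Both had reads in all 6 libraries, as did 9.92% of all circular RNAs. Of 123 host genes with at least 173 reads, 24 listed, like these, a single circular RNA, and the median number was 4.

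LOC109404970 had 20, 19 and 18 reads in female replicates 1, 2 and 3, and 45, 27 and 52 in male replicates 1, 2 and 3. LOC115261543 had 24, 22 and 11 reads in the female libraries and 24, 38 and 54 in the male libraries. Summed by sex, both genes had 57 reads in females, while in males LOC109404970 had 124 and LOC115261543 had 116. LOC109404970 was the higher of the pair in 2 of 6 libraries, female replicate 3 and male replicate 1. The log2 ratio of LOC109404970 over LOC115261543 within a library averaged 0.096 ± 0.56 (SD, n = 6; 0.5 reads added to each), a difference within the spread between libraries (exact sign-flip permutation test, two-sided, p = 0.75; the smallest p this design allows is 0.031). Its sign turned without female replicate 3 (-0.022) and without male replicate 1 (-0.063). How the authors counted reads that fit both loci is not given in the sources used here, so the split between the genes is uncertain. Summing the pair removes any dependence on which locus such a read was assigned to, though not on whether it was dropped or counted at both. The sequences of the loci were not compared here.

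Over all libraries LOC109404970 took 51.1% of the reads of the pair (95% Wilson interval 45.9% to 56.3%, which covers counting error only). Single libraries were less even. In females its share was 45.5%, 46.3% and 62.1% in replicates 1, 2 and 3, with intervals of 31.7% to 59.9%, 32.1% to 61.3% and 44.0% to 77.3%. In males it was 65.2%, 41.5% and 49.1%, with intervals of 53.4% to 75.4%, 30.4% to 53.7% and 39.7% to 58.4%. The interval of male replicate 1 alone lay wholly on one side of 50%. The mean share was 51.3% ± 9.35 in females and 51.9% ± 12.1 in males (SD, n = 3 each). The female minus male difference of -0.65 percentage points was within the spread between libraries (exact permutation test, two-sided, p = 1.0; the smallest p with 3 against 3 libraries is 0.1), and its sign turned without female replicate 1 (2.27), female replicate 2 (1.82) or male replicate 1 (5.99).

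**Figure D3:**
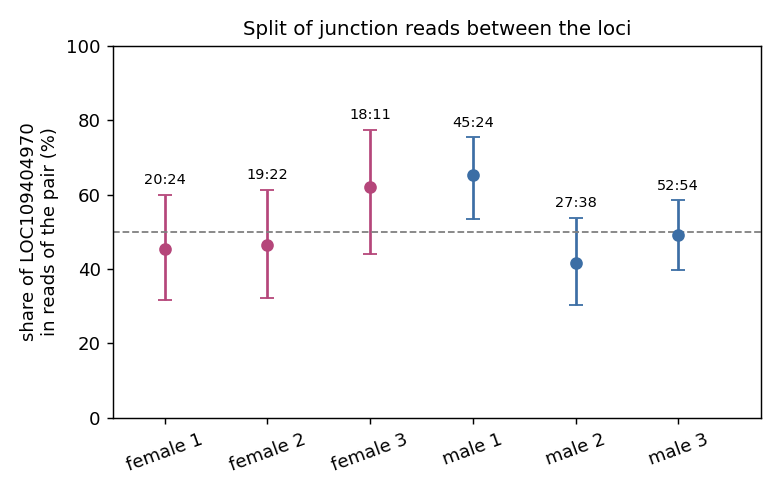
Share of LOC109404970 in the junction reads of the pair in percent on the vertical axis, for each female and male library, with 95% Wilson intervals as bars and the reads of LOC109404970 and LOC115261543 above each bar. The dashed line marks 50%, and the interval of male replicate 1 (53.4% to 75.4%) is the 1 that does not reach it.

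The split can be set beside that of other circular RNAs with a look-alike. Across the whole table, 522 pairs of circular RNAs came from different host genes with the same product name and had a span and a spliced length within 10 bases of each other. Some circular RNAs stood in more than 1 such pair. Like the Sex-lethal-like pair, 171 of the 522 lay on 1 contig on opposite strands, so that arrangement is not particular to it. Of the 522 pairs, 130 had at least 50 reads in all, and the Sex-lethal-like pair, with 354, ranked 7 by reads. Its locus with fewer reads held 48.9% of them. Over the 130 pairs that share ran from 1.79% to 49.1%, with a median of 27.3% and quartiles of 14.5% and 37.2%, and 2 pairs, this one included, reached 48.9% or more. Among pairs with more reads, that of the trehalose transporter Tret1-like genes stood at 48.4% and that of cytospin-A at 3.29%. These shares are a description of the table, and the cause of an even or uneven split was not tested.

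**Figure D4:**
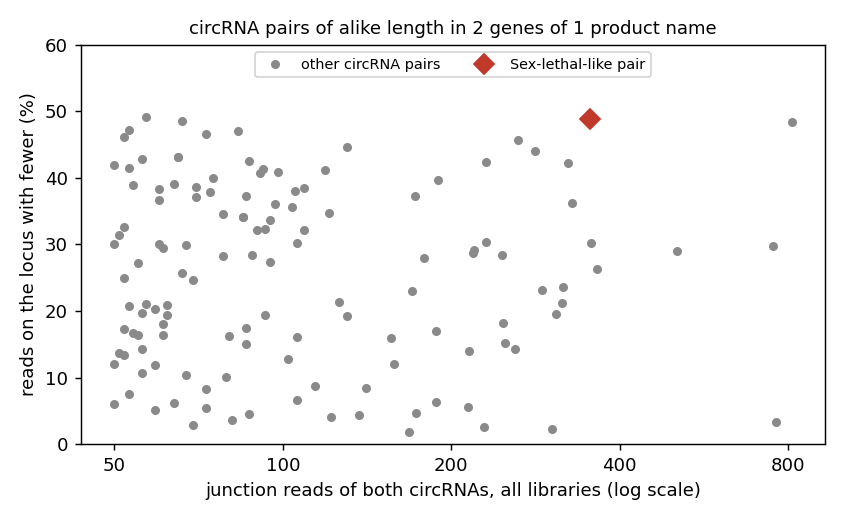
Each point is a pair of circular RNAs of alike span and spliced length in different host genes of the same product name, with the reads of both on a log horizontal axis and the percentage on the locus with fewer reads on the vertical axis. The Sex-lethal-like pair (red diamond, 354 reads) stands at 48.9%, against a median of 27.3% over the 130 pairs.

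Neither gene of the pair passed the test of sex. Both had a lower mean level in females than in males, with libraries of the sexes overlapping. Levels are junction reads per 10000 reads of the library, scaled by TMM (a normalization to the bulk of circular RNAs). LOC109404970 stood at 12.4, 11.3 and 13.9 in female replicates 1, 2 and 3 and at 21.7, 11.2 and 20.2 in male replicates 1, 2 and 3. Male replicates 1 and 3 lay above all females, and male replicate 2 lay just below them, so the sexes overlapped. The means were 12.5 ± 1.31 in females and 17.7 ± 5.70 in males (SD, n = 3 each). By edgeR's quasi-likelihood test over 870 host genes the log2 fold change of female over male was -0.50 (SE 0.36, Benjamini-Hochberg adjusted p = 0.50), with a 95% interval of the fold from 0.424 to 1.18.

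LOC115261543 stood at 14.9, 13.1 and 8.49 in the female libraries and at 11.6, 15.8 and 20.97 in the male libraries. Female replicate 3 was the lowest and male replicates 2 and 3 the highest, while male replicate 1 fell among the females. The means were 12.1 ± 3.29 in females and 16.1 ± 4.70 in males (SD, n = 3 each), and the log2 fold change was -0.40 (SE 0.37, edgeR adjusted p = 0.63), with a 95% interval of the fold from 0.447 to 1.29. Of the 870 host genes tested, 4.83% were called at an adjusted p under 0.05 (22 with the female level above the male and 20 with it below), and 0 of the 2 genes of the pair were. At an unadjusted p under 0.05 the count was also 0 of 2, by edgeR and by DESeq2, beside 18.2% of all host genes by edgeR. LOC109404970 came under that unadjusted threshold without male replicate 2 and, as a single circular RNA, without a filter on low counts, but not under the adjusted one. Libraries of the sexes did not overlap for 24.8% of host genes, and for neither gene of the pair.

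**Figure D5:**
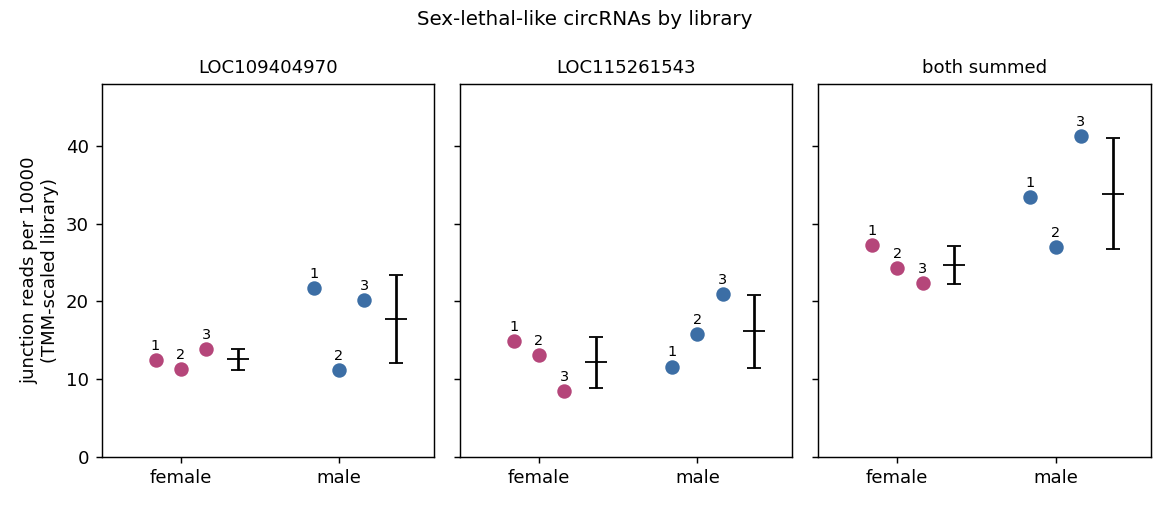
Junction reads per 10000 reads of the TMM-scaled library for LOC109404970, LOC115261543 and both summed, on the vertical axis. Points are female and male libraries with their replicate numbers, and the bar beside them is the mean ± SD (n = 3); the sexes overlap in each panel, with means of 24.7 in females and 33.8 in males for the sum.

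Summing both genes took their split out of the comparison, and the SE was smaller than for either gene. The sum stood at 27.2, 24.3 and 22.4 in female replicates 1, 2 and 3 and at 33.4, 26.9 and 41.2 in male replicates 1, 2 and 3. Only female replicate 1 and male replicate 2 crossed. The means were 24.7 ± 2.44 in females and 33.8 ± 7.15 in males (SD, n = 3 each). With the pair as 1 of 869 host genes the log2 fold change was -0.45 (SE 0.26, edgeR adjusted p = 0.37), and the 95% interval of the fold ran from 0.508 to 1.05. The unadjusted edgeR p of the sum was 0.086. It came under 0.05 without male replicate 2 (0.032) and without a filter on low counts (0.020), with adjusted p of 0.31 and 0.43. A female level below 0.508 of the male level therefore lay outside that interval, whereas equal levels lay inside it.

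Tested as single circular RNAs among 738, the same reads gave log2 fold changes of -0.47 (SE 0.37, edgeR adjusted p = 0.52) for LOC109404970 and -0.36 (SE 0.39, adjusted p = 0.65) for LOC115261543. Of the 738, 6.64% were called (3.79% with the female level above the male and 2.85% with it below), and these included 0 of the 2 circular RNAs of the pair. In absolute size, 38.3% and 30.1% of all circular RNAs tested had a smaller fold change than these. In the authors' deposited table LOC109404970 stood at 2.42, 2.20 and 2.57 CPM in females and 4.24, 2.14 and 3.68 CPM in males, and in the authors' deposited table LOC115261543 stood at 2.90, 2.55 and 1.57 CPM in females and 2.26, 3.01 and 3.83 CPM in males.

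Although alike in shape and mean level, the genes did not follow each other closely from library to library. Pearson's r between their log2 levels was 0.13 over the 6 libraries, and 412 of the other 869 host genes had a higher r with LOC109404970 than LOC115261543 had. Each level rests on only 11 to 54 reads. How far counting error, or the assignment of reads that fit both loci, lowered this r was not tested. The host genes most like LOC109404970 were zinc transporter 1-like (LOC109403644, r = 0.95; 18 female and 39 male reads), the uncharacterized LOC109403689 (r = 0.90) and mucin-5AC-like (LOC109424503, r = 0.86). Those most like LOC115261543 were a transient receptor potential cation channel trpm-like gene (LOC109399478, r = 0.93; 34 female and 97 male reads), the phosphodiesterase GPCPD1-like (LOC109427939, r = 0.92) and sodium-dependent nutrient amino acid transporter 1-like (LOC109406368, r = 0.92). These are the highest of 869 values over 6 libraries, which share their depth and their sex, and are given as a description.

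Other genes listed by name for sex determination or as partners of Sex-lethal gave fewer junction reads than the pair. The list held 11 host genes, the pair included. Genes entered it by product name alone, so such a role is not shown for each, the YTHDC2 helicase genes among them. Of the 11, 4 had enough reads for the test, the pair among them, beside 870 of all 4166 host genes. Too few reads for the test was therefore common in the whole table and not a trait of this list. Of the 4 tested, 0 were called higher in females and 0 in males, beside 2.53% and 2.30% of the 870. The median log2 fold change of the list was -0.45, set by the pair, against -0.05 over all 870 host genes. Daughterless (LOC109416248), a basic helix-loop-helix factor that in Drosophila helps to activate Sex-lethal, had 17, 7 and 4 reads in the female libraries and 7, 11 and 14 in the male libraries (log2 fold change 0.41, SE 0.64, edgeR adjusted p = 0.80). Held out wings (LOC109417539), a KH-domain RNA-binding protein, had 6, 0 and 0 reads in females and 10, 0 and 9 in males (-1.06, SE 1.24, edgeR adjusted p = 0.72). Both overlapped between the sexes, and held out wings rested on 3 of the 6 libraries.

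The other 7 genes of the list stayed under the read filter. Doublesex-like (LOC109398989), the transcription factor at the base of the insect sex determination cascade, had 4, 2 and 6 reads in females and 5, 3 and 8 in males. The WTAP splicing regulator (LOC109401152), whose Drosophila counterpart acts with Sex-lethal in splicing, had 4, 1 and 1 reads in females and 4, 2 and 2 in males. The fruitless-like gene LOC109422828, a neural transcription factor, had 0, 2 and 3 reads in females and 0, 6 and 0 in males, and the other fruitless-like gene, LOC109400905, had 0, 0 and 3 in females and 0 in each male library. The second held out wings gene (LOC109410223) had 0 reads in each female library and 2, 5 and 1 in males. Those are unscaled reads, the male libraries were deeper, and no test was run for this gene. The YTHDC2 helicase genes had 4, 6 and 2 reads in females and 1, 5 and 0 in males (LOC109425944), and 3, 0 and 0 in females with 0 in each male library (LOC115259233). A list by words in product names, meant for the ELAV and Hu family of RNA-binding proteins, held 4 host genes. All 4 were named CUGBP Elav-like, so they matched by that word and no ELAV or Hu gene proper was listed. Of the 4, 0 had enough reads for the test. The Sex-lethal-like pair held the 2 highest read totals of both lists. At this depth the sexes were not compared by a test for doublesex, fruitless or the CUGBP Elav-like genes.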

How the data were processed

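Groups and replicate numbers came from the sample titles. The deposited counts are whole-number back-splice junction reads, not normalised, per the file headers and values; lines repeated per protein were collapsed from 30393 to 8690 circular RNAs. The authors' deposited CPM values, normalised by TMM per the title of the table, cover 764 circular RNAs; multiplied by 1 factor per library, 100% of them came out as whole reads within 0.01. Spliced lengths and host gene positions are the authors' deposited values. Bowtie2 2.1.0 stands in the submitters' processing notes; for the circular RNA caller, the build and the annotation, no name is given in the sources used here. Per the labels' protocols, libraries were directional.

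The test was run in edgeR 4.0.16 (R 4.3.3) on counts with TMM scaling and filterByExpr (minimum count 5, minimum total 15), as the quasi-likelihood F test of sex (Benjamini-Hochberg adjustment, threshold 0.05), per circular RNA, per host gene and with the pair summed. The interval of a fold is 95%, from the SE, which is the absolute log2 fold change divided by the root of F. Permutation tests used scipy 1.17.1 in Python 3.11.15. DESeq2 1.42.0 was an alternative. On simulated data the host gene test recovered 20% of 100 genes changed 2-fold and 59% of 100 changed 4-fold among 870, with 2 false calls among 670 unchanged. The circular RNA test recovered 15% and 56% among 738, with 2 false calls among 538. The changed members were drawn at random from all those tested, so recovery at the read level of the pair was not measured. Libraries of 1 sex differed by more than counting error (a chi-square of at least 2.07 per degree of freedom), so all were kept. The series design calls them biological replicates. All circular RNAs of both genes were named, with the 3 host genes of highest r to each and the tested members of the sex determination list. The genes and lists were chosen with earlier results of these data known.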

Additional observations from a re-analysis of the deposited data

How the results depend on the processing

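The direction of the sex difference held in all 52 refits of the pair's circular RNAs, host genes and sum, and 0 of these passed the threshold. With 1 circular RNA per gene, these refits reuse the same reads and mostly the same libraries, so they are not 52 separate checks of direction. The summed log2 fold change ran from -0.65 to -0.37 (adjusted p from 0.31 to 0.66). The single genes moved more: leaving out 1 library took the host gene value of LOC109404970 from -0.50 to between -0.80 (without male replicate 2) and -0.37 (without male replicate 1), and that of LOC115261543 from -0.40 to between -0.62 (without male replicate 1) and -0.23 (without female replicate 3). Without a filter on low counts the values of the circular RNAs of LOC109404970 and LOC115261543 were -0.78 and -0.68, while the median of the 738 circular RNAs moved to -0.31 in that fit; relative to the median they were -0.47 and -0.37. Over the fits that left out 1 library, calls ran from 23 to 55 circular RNAs and from 12 to 55 host genes, the log2 ratio between the loci from -0.063 to 0.21, and the difference in share from -6.04 to 5.99 percentage points; the cause was not tested. Called circular RNAs numbered 49 (28 higher in females, 21 in males), and 22 (3 and 19) without the filter. Called host genes numbered 42, 55 by DESeq2 (36 higher in females, 19 in males) and 36 without the filter (13 and 23). Reads recovered from the CPM table, an alternative added after seeing the data, gave 47 called circular RNAs. With the replicate block, calls were 49 circular RNAs and 52 host genes, and the pair's values were -0.43, -0.35, -0.46, -0.38 and -0.44 (sum). The share then differed by -0.65 (exact permutation p = 1.0, where the smallest with 3 pairs is 0.25). Same-numbered libraries did not deviate together (r from -0.02 to 0.03, beside -0.08 to 0.06 for libraries of different number). No pairing by number was seen, though so few correlations cannot exclude one. Matched circular RNAs of the pair numbered 0 at equal lengths, 1 within 10 bases and 0 at equal spliced length alone. Shares over exactly matched circular RNAs alone could not be computed. The 11 to 24 reads per gene in each female library limit the split and the sex difference.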

Other observations

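Circular RNAs of the mirrored neighbours can be set beside those of the Sex-lethal-like genes by spliced length. LOC109416146 and LOC109416208, the notch homolog protein 3-like genes, each listed a circular RNA of 306 spliced bases and one of 592. The shorter had 47 reads at LOC109416146 and 4 at LOC109416208, and the longer 5 and 33 reads. Their spans differed between the loci, at 447 and 947 bases for the shorter and 9876 and 5524 bases for the longer, and their junctions lay 3224 and 18194 bases from the 3′ end of the gene. The alpha-tocopherol transfer protein genes LOC109416172 and LOC109404973 listed a circular RNA of 630 and 629 spliced bases with 13 and 5 reads, and one of 503 bases at both with 4 and 5 reads. The former spanned 1627 and 1637 bases and lay 108 and 126 bases from the 3′ end of the gene. The latter spanned 796 and 799 bases and lay 939 and 964 bases from it. The pickled eggs genes listed none within 10 bases of each other. Of the 5 matches of circular RNAs among the mirrored genes, that of the Sex-lethal-like pair was the only one at exactly the same distance from the 3′ end. Those of the alpha-tocopherol transfer protein genes came close, so a near match in span and place was not particular to the Sex-lethal-like pair.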
